A study of Mus musculus with 13 samples.

Results

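The acute-phase and fibrinogen transcripts described here are 10 of the 24421 genes in the deposited count table, taken by their symbols: Saa1, Saa2, Hp, Orm1, Itih4, Fga, Fgb, Fgg, Fgl1 and Lcn2. They were counted by bulk RNA-seq in liver endothelial cells of wild-type mice, in 7 libraries from conventionally raised mice (CONV-R 1 to 7) and 6 from germ-free mice (GF 8 to 13), which are kept without live microbes. The comparison asks how levels differ when the microbiota is missing, in the library as a whole and relative to albumin (Alb) in the same library. Sex, age, strain and the way the cells were isolated are not given in the labels, nor is it said whether each library is a separate animal, so p-values here measure the spread between libraries. Of the 10 genes, 8 were abundant enough to be tested, and Saa1 and Saa2 were not, as each had 12 counts or fewer in 9 of the 13 libraries.

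Acute-phase proteins are plasma proteins that hepatocytes make in larger amounts during infection or tissue injury. Interleukin-6 acts on hepatocytes through STAT3, interleukin-1 and TNF act through NF-kB, and transcription factors of the C/EBP family take part in both routes. Fibrinogen, the precursor of the fibrin clot, is built from an alpha, a beta and a gamma chain encoded by Fga, Fgb and Fgg, and is itself an acute-phase protein. Albumin, also a product of hepatocytes, falls during an acute phase. Liver endothelial cells are not known as a main source of these proteins, and lipocalin-2 (Lcn2) is made by neutrophils as well as by hepatocytes.

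The genes lie on 6 mouse chromosomes (RefSeq annotation of GRCm38, the build that the submitters call mm10), and RefSeq lists each as protein-coding. Fgg, Fga and Fgb are neighbours on chromosome 3, at 83007724 to 83015056, 83026153 to 83033627 and 83042246 to 83049863. Saa1 and Saa2 are neighbours on chromosome 7, at 46740497 to 46743181 and 46751833 to 46754313. The haptoglobin gene Hp spans 109575128 to 109579172 and Fgl1 spans 41191434 to 41217978, both on chromosome 8. Orm1 lies on chromosome 4 (63344556 to 63348163), Lcn2 on chromosome 2 (32384637 to 32387739) and Itih4 on chromosome 14 (30886476 to 30901986).

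Upstream sequence was found for 7 of the 10 genes in a RefSeq table of GRCm38.p6. The 250 bases before the transcript start are shown for both Saa genes, whose counts differed most between libraries and which are near copies of each other, and for the 3 fibrinogen chains, whose counts moved together. Capitals mark matches, on either strand, to a C/EBP motif (TTGCNNAA), a STAT motif (TTCNNNGAA) or a type II interleukin-6 response motif (CTGGGAA).
Saa1, chr7:46742981-46743230, minus strand: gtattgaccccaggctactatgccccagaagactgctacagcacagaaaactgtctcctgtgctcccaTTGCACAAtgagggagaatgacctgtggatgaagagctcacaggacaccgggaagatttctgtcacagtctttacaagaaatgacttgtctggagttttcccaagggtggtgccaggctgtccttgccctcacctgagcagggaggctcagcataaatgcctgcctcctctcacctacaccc
Saa2, chr7:46751583-46751832, plus strand: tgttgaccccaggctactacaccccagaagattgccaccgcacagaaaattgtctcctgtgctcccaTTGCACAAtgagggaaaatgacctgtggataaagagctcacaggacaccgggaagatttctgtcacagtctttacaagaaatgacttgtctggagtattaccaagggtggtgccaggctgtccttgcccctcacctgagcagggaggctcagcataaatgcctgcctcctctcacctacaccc
Fga, chr3:83025903-83026152, plus strand: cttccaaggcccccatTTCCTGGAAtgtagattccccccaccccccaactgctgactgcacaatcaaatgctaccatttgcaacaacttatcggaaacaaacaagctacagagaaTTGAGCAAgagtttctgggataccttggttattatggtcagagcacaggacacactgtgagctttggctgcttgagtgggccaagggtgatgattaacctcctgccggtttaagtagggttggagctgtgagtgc
Fgb, chr3:83049864-83050113, minus strand: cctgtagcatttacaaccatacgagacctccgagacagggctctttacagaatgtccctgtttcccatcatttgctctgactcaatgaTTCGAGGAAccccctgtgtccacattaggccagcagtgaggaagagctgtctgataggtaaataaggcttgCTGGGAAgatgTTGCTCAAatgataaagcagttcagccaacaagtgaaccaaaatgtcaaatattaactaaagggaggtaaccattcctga
Fgg, chr3:83007474-83007723, plus strand: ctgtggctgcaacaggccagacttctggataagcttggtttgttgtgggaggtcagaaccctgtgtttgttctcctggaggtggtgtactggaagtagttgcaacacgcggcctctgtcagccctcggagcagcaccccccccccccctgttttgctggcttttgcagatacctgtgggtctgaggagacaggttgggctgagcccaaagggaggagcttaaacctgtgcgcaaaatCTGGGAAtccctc
Over all 32851 windows of this length in the table, 9.56% held the C/EBP motif, 7.02% the STAT motif and 9.10% the interleukin-6 motif. The C/EBP match began at -182 in Saa1 and -183 in Saa2, counted back from the transcript start. The 2 Saa windows were identical at 94.8% of aligned positions. Fgb held 1 match of each motif, at -80 (C/EBP), -162 (STAT) and -91 (interleukin-6). Fga held a C/EBP and a STAT match, and the only match in Fgg was the interleukin-6 motif at -13. Lcn2 held a C/EBP match, Itih4 a STAT match and Alb a C/EBP match. A strict form of the NF-kB motif, which had to begin with GGG, was searched in the same windows and found in 7.25% of all. It matched none of these windows, and looser forms of the motif were not searched. A match is a likeness of letters and not a measured binding site. For Saa1, the start used for the window lies within the annotated span of the gene.

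The CONV-R libraries held 7590320 to 32869515 counts each, CONV-R 6 being the smallest, and the GF libraries 23407168 to 35478115. Markers of liver endothelial cells were abundant throughout, with a sum of 34182 to 37820 CPM in GF against 17899 to 32564 in CONV-R, and none of the 12 was at 0 in any library. CPM here are counts per 1000000 counts of the library total after TMM scaling, which corrects for differences in composition. A reference list of 25 hepatocyte genes that holds neither acute-phase genes nor Alb summed to 624 to 877 CPM in GF against 564 to 3308 in CONV-R. Neutrophil markers summed to 84.9 to 178 CPM in GF against 154 to 2319 in CONV-R, with the granule gene Elane at 0 in all 6 GF libraries and in CONV-R 2, 3 and 4. Kupffer cell markers summed to 2420 to 3828 CPM in GF against 2355 to 7491 in CONV-R. In a bulk library, fewer cells of a type and less RNA per cell cannot be told apart. Library names carry a code number, 10 for CONV-R 1 to 4, 9 for CONV-R 5 to 7 and 6 for GF. Its meaning is not stated. No number occurs in both groups, so between GF and CONV-R it cannot be told apart from the group.

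All 8 tested genes were lower in GF. Over all 13915 tested genes 1764, or 12.7%, were lower and 11.4% higher (edgeR quasi-likelihood fit, p under 0.05 after Benjamini-Hochberg adjustment). The log2 fold changes of the 8 genes (GF over CONV-R) had a median of -3.13, and those of all tested genes a median of -0.01. In 4 of the 10 genes, Hp, Fgb, Fgg and Itih4, every GF library lay below every CONV-R library, which was the case for 4.32% of tested genes. The CONV-R libraries were not alike. Libraries 1, 5, 6 and 7 held high levels of nearly all of these transcripts, and libraries 2, 3 and 4 stood near the GF libraries. The first 4 were also the libraries with the lowest totals, 7590320 to 18276439 counts against 23407168 to 35478115 in the other 9. Their summed Kupffer cell markers, at 4162 to 7491 CPM, lay above those of all other libraries, with CONV-R 2 to 4 at 2355 to 2972. CONV-R 5, 6 and 7 carried code number 9, while CONV-R 1 shared number 10 with CONV-R 2, 3 and 4. The part of depth, of Kupffer cell RNA and of the code number in this split was not tested.

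**Figure D1:**
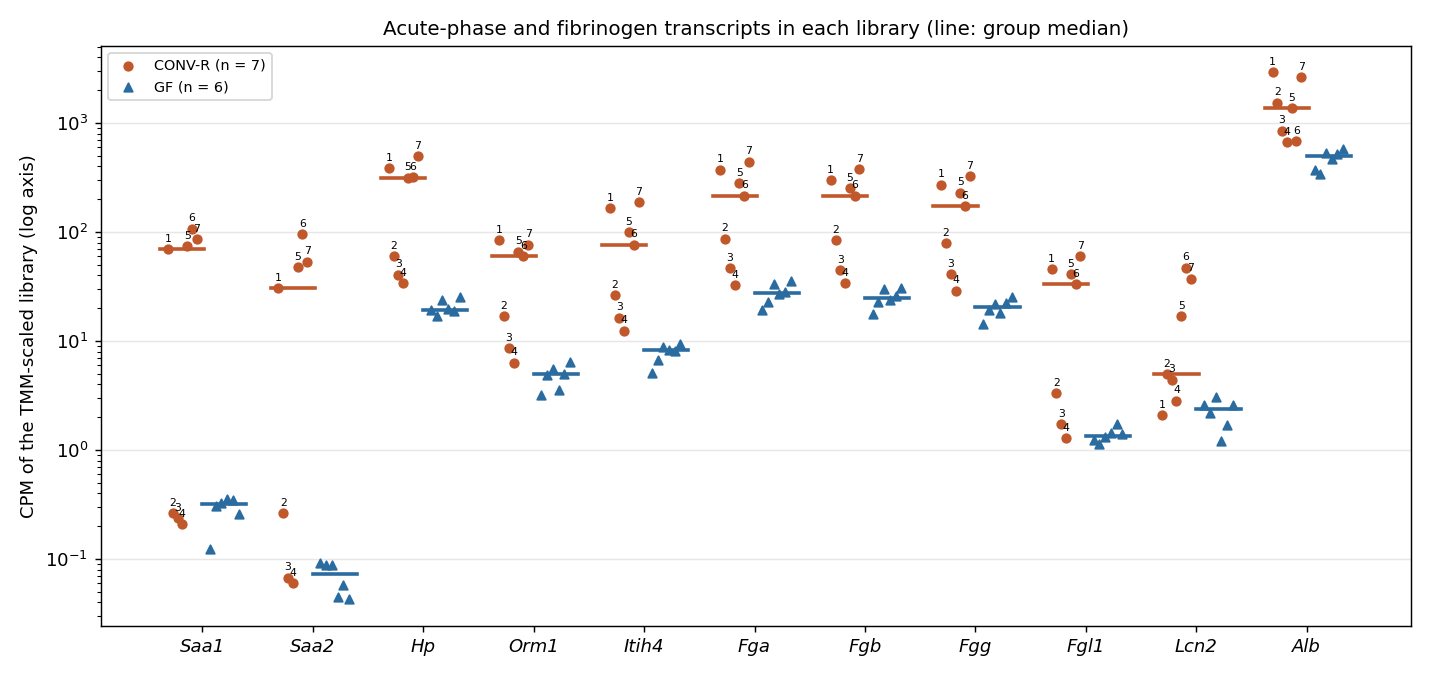
Level of each transcript, and of albumin, in every library, in CPM on a log axis; circles are the CONV-R libraries with their numbers, triangles the 6 GF libraries, and lines the group medians. For Saa1, CONV-R 1, 5, 6 and 7 sit at 69.4 to 108 CPM and CONV-R 2, 3 and 4 at 0.209 to 0.262, among the GF libraries at 0.123 to 0.359.

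Serum amyloid A proteins, carried on high-density lipoprotein, are the strongest acute-phase reactants of the mouse. Saa1 had 1369, 8, 7, 7, 1200, 824 and 1111 counts in CONV-R 1 to 7 and 4, 7, 11, 8, 12 and 6 in GF 8 to 13. Saa2 had 601, 8, 2, 2, 761, 736 and 688 counts in CONV-R and 3, 2, 3, 1, 2 and 1 in GF. In both genes CONV-R 1, 5, 6 and 7 stood more than an order of magnitude above all other libraries, and the remaining CONV-R libraries overlapped GF for Saa1. For Saa2, CONV-R 2 also lay above the GF range, on 8 counts. Summed over each group and scaled by library size, counts in GF were 106-fold lower for Saa1 (95% counting interval 80.1 to 145) and 263-fold lower for Saa2 (150 to 510). These intervals cover counting error only and not the split among the CONV-R libraries.

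On log2(CPM + 0.5) the groups differed by -3.82 for Saa1 (p = 0.0589, exact two-sided permutation test) and by -3.79 for Saa2 (p = 0.0321, exact permutation test), both unadjusted. With no filter on low counts, so that both genes entered the fit, edgeR gave adjusted p of 0.0159 for Saa1 and 0.0137 for Saa2. Against CONV-R 1 to 4 alone, the Saa2 difference was -1.54 (p = 0.0905, exact permutation test). The share of Saa2 in the counts of both genes was 30.5% in CONV-R 1 (95% Clopper-Pearson interval 28.5 to 32.6), 38.8% in CONV-R 5 (36.6 to 41.0), 47.2% in CONV-R 6 (44.7 to 49.7) and 38.2% in CONV-R 7 (36.0 to 40.5). The shares in CONV-R 1 and 6 thus differed from each other and from the other 2 libraries by more than counting error. In every GF library the share rested on 7 to 14 counts. The transcripts are 93.9% identical, with an unbroken identical run of 99 bases, and how the authors' counting treated reads that fit both is not given in the sources used here. RefSeq also lists Saa2 among the older names of Saa1, so the assignment of counts between the pair is uncertain.

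Haptoglobin captures free haemoglobin in the plasma. Its transcript had the highest median CPM of the 10 genes over the CONV-R libraries, whereas in GF the medians of all 3 fibrinogen chains were higher. Hp stood at 387, 60.1, 40.8, 34.0, 316, 318 and 500 CPM in CONV-R 1 to 7 and at 19.2, 17.0, 23.6, 19.7, 19.0 and 25.4 in GF 8 to 13. It was 11.4-fold lower in GF (log2 fold change -3.52 ± 0.63 SE, adjusted p = 0.00239, edgeR), and the groups did not overlap. CONV-R 2, 3 and 4 lay closer to the highest GF library than to CONV-R 1, 5, 6 or 7.

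Orosomucoid 1 (Orm1), a carrier of basic drugs and lipids in plasma, ranged from 6.33 to 84.3 CPM in CONV-R (median 59.7) and from 3.23 to 6.37 in GF (median 4.96). The lowest CONV-R value, in library 4, fell inside the GF range, and the other 6 lay above it. Orm1 was 9.47-fold lower in GF (log2 fold change -3.24 ± 0.60, adjusted p = 0.00270, edgeR). Its transcript is 91.0% identical to that of Orm2 and 86.1% to that of Orm3, so counts can be shared or lost between them. Orm2, chosen after its values were seen and too low to be tested, reached 5.12, 7.06, 15.4 and 7.86 CPM (CONV-R 1, 5, 6 and 7) and had 2 to 10 counts in CONV-R 2 to 4 and 0 to 2 in GF. It thus stood high in the same 4 CONV-R libraries as Saa1 and Saa2.

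Inter-alpha-trypsin inhibitor heavy chain 4 (Itih4), a plasma protein cleaved by kallikrein, ranged from 12.5 to 188 CPM in CONV-R (median 76.6) and from 5.14 to 9.32 in GF (median 8.20). The groups did not overlap. Itih4 was 10.7-fold lower in GF (log2 fold change -3.43 ± 0.63, adjusted p = 0.00271, edgeR).

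The 3 fibrinogen chains were lower in GF to a like extent. Fga ranged from 32.5 to 442 CPM in CONV-R (median 216) and from 19.3 to 35.5 in GF (median 27.6), a 7.61-fold lower level (log2 fold change -2.93 ± 0.56, adjusted p = 0.00343, edgeR). Its lowest CONV-R library, CONV-R 4, lay within the GF range. Fgb ranged from 34.2 to 377 CPM in CONV-R (median 216) and from 17.9 to 30.7 in GF (median 24.9), 7.41-fold lower (-2.89 ± 0.52, adjusted p = 0.00242, edgeR). Fgg ranged from 29.1 to 323 CPM in CONV-R (median 174) and from 14.4 to 25.1 in GF (median 20.5), 8.12-fold lower (-3.02 ± 0.52, adjusted p = 0.00187, edgeR). Neither Fgb nor Fgg overlapped between the groups. These are the chains whose upstream windows are printed above.

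Fibrinogen-like 1 (Fgl1), a hepatocyte-secreted protein with a fibrinogen-like domain that binds the immune receptor LAG3, had the largest fold change of the tested members. Fgl1 stood at 45.7, 3.34, 1.73, 1.28, 41.1, 33.4 and 60.5 CPM in CONV-R 1 to 7 and at 1.15 to 1.73 in GF. CONV-R 3 and 4 lay within the GF range and CONV-R 2 above it. Fgl1 was 19.1-fold lower in GF (log2 fold change -4.26 ± 0.89, adjusted p = 0.00534, edgeR). The call was lost with limma-voom, which weights libraries by quality (-1.39, adjusted p = 0.197).

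Lipocalin-2, which binds bacterial siderophores and so withholds iron, followed another order of libraries. Lcn2 stood at 2.08, 4.98, 4.43, 2.84, 16.9, 47.3 and 37.4 CPM in CONV-R 1 to 7 and at 2.62, 2.21, 3.09, 1.21, 1.70 and 2.57 in GF 8 to 13. CONV-R 1, high in the other 9 genes, lay within the GF range here, as did CONV-R 4. Lcn2 was 7.23-fold lower in GF (log2 fold change -2.85 ± 0.74, adjusted p = 0.0147, edgeR). The summed neutrophil markers had a similar order, from 154 CPM in CONV-R 1 through 275 to 393 in CONV-R 2, 3 and 4 to 747, 1457 and 2319 in CONV-R 5, 6 and 7. With that sum as a covariate, the Lcn2 log2 fold change was 0.86 (adjusted p = 0.237, edgeR), and against CONV-R 1 to 4 alone it was -0.68 (adjusted p = 0.152). Leaving out CONV-R 6 and 7 together gave -1.48 (adjusted p = 0.0594), and limma-voom -1.33 (adjusted p = 0.0599).

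**Figure D2:**
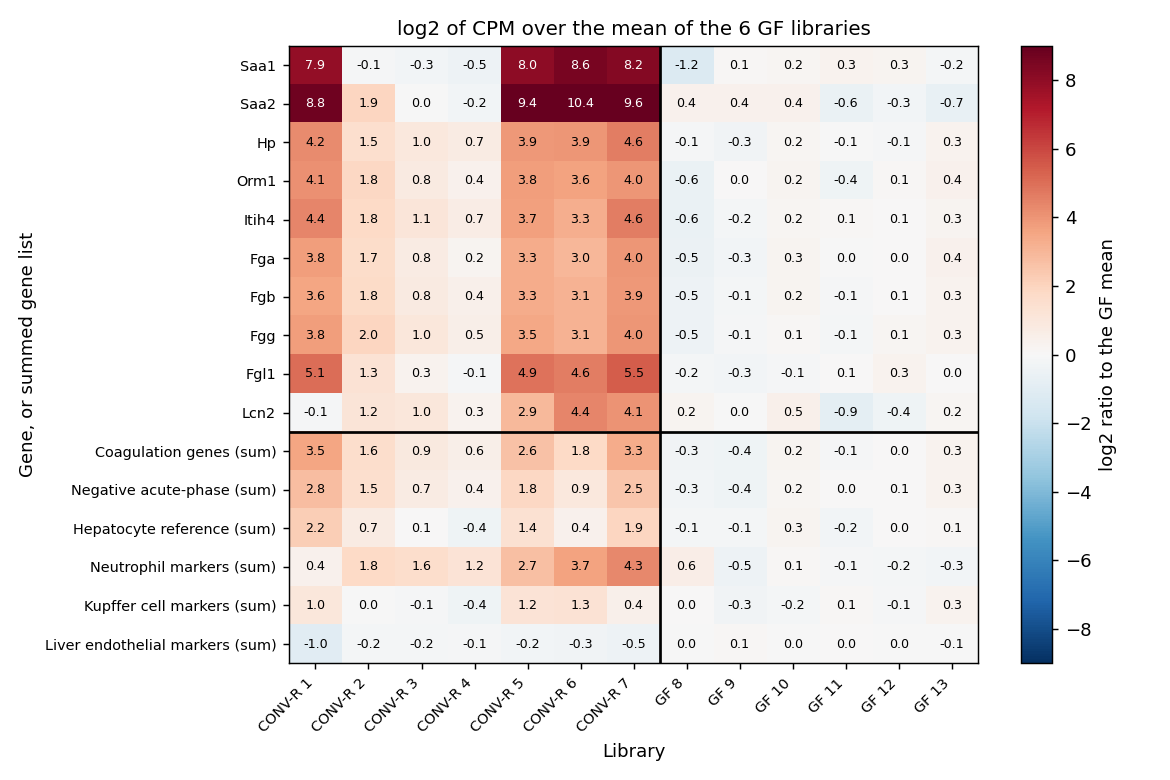
Log2 ratio of the level in each library (columns) to the mean of the 6 GF libraries, for the 10 transcripts and, below the line, for the summed levels of gene lists; red is above the GF mean and blue below. Saa1 to Fgl1 are high in CONV-R 1, 5, 6 and 7, whereas Lcn2 is at the GF mean in CONV-R 1, where the neutrophil sum of 154 CPM also lay within the GF range.

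The tested genes other than Lcn2 kept nearly the same profile. Over the 13 libraries, Pearson correlations of log2 CPM between the 21 pairs of the 7 genes ran from 0.970 to 0.998, and over the 7 CONV-R libraries from 0.981 to 0.999. The 7 pairs with Lcn2 gave 0.712 to 0.771 and, within CONV-R, 0.488 to 0.593. The genes were counted in the same libraries, so the values describe the profiles and are not tests. Outside all lists, the 5 genes whose log2 CPM was most like the mean profile of the tested members over the 13 libraries were Apon (r = 0.985), Apof (0.976), Tsku (0.976), Wfdc21 (0.976) and Depdc7 (0.975). Each stayed alike within CONV-R alone, from 0.952 for Apof to 0.990 for Depdc7. Apon and Apof are apolipoproteins. Apon ranged over 1.39 to 2.40 CPM among GF libraries and 2.96 to 23.6 among CONV-R libraries, and Tsku over 8.70 to 10.5 and 9.02 to 20.8.

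Per kilobase of transcript, the order of the levels differed between the groups. In GF, median levels ran from Hp (14.5 CPM per kilobase), Fgg (11.8) and Fga (10.7) through Fgb (6.53) and Orm1 (6.41) to Lcn2 (2.61), Itih4 (2.32), Fgl1 (1.21), Saa1 (0.522) and Saa2 (0.121). In CONV-R they ran from Hp (235), Saa1 (114), Fgg (99.9), Fga (83.5) and Orm1 (77.0) through Fgb (56.7), Saa2 (50.3), Fgl1 (29.9) and Itih4 (21.7) to Lcn2 (5.44). By these medians Saa1 held the ninth place in GF and the second in CONV-R, but the CONV-R median is the lowest of the 4 high libraries. In single libraries Saa1 held places 2 to 4 in CONV-R 1, 5, 6 and 7 and 9 or 10 in CONV-R 2 to 4, where it stood at 0.343 to 0.430 CPM per kilobase. Without CONV-R 1, 5, 6 or 7 its median would be 57.2 to 61.7. Ranges over libraries overlapped between all neighbours in the CONV-R order. In the GF order neighbours also overlapped, except that Orm1 (4.17 to 8.22) lay above Lcn2 (1.32 to 3.38), Fgl1 (1.02 to 1.55) above Saa1 (0.202 to 0.590) and Saa1 above Saa2 (0.0706 to 0.153).

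Albumin, the most abundant product of hepatocytes in plasma, was the denominator for the second comparison. Alb stood at 2922, 1543, 852, 667, 1364, 684 and 2620 CPM in CONV-R 1 to 7 and at 369, 344, 536, 471, 521 and 572 in GF 8 to 13. It was lower in GF without overlap (log2 fold change -1.70 ± 0.35, adjusted p = 0.00530, edgeR), by less than any of the 8 tested members. The order of libraries also differed: Alb in CONV-R 6 was close to that in CONV-R 4, while Hp in CONV-R 6 was close to that in CONV-R 5.

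Relative to Alb the CONV-R libraries fell into the same 2 sets. CONV-R 5, 6 and 7 lay above the whole GF range in all 10 genes, and CONV-R 1 in 9, the exception being Lcn2, where it lay below. CONV-R 2, 3 and 4 lay above the GF range in 0 of 10 genes. They were within it for 8, 8 and 7 genes and below it for Saa1 and Fgl1, and CONV-R 4 also for Fga. By CPM the same 3 libraries had been above GF in 9, 7 and 4 genes. CONV-R 6 had the highest ratio of all libraries in each of the 10 genes.

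**Figure D3:**
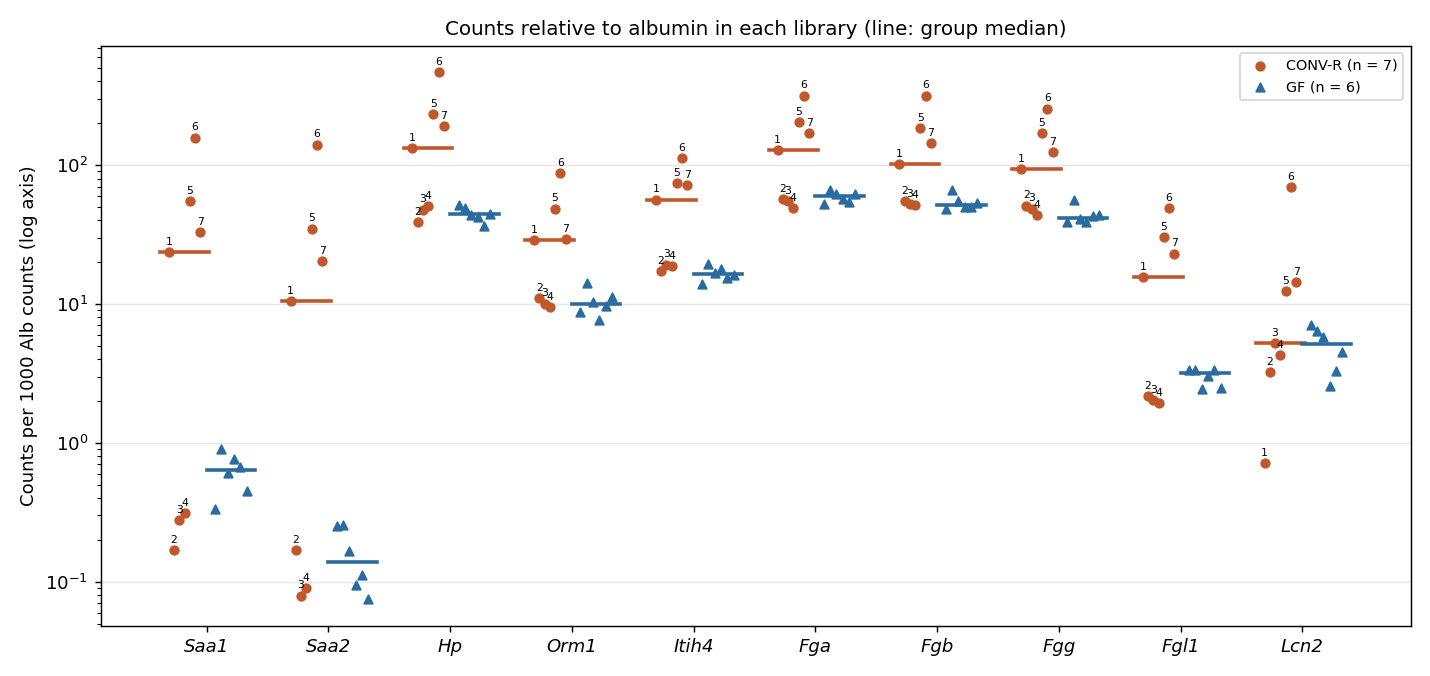
Counts of each transcript per 1000 albumin counts in every library, on a log axis, with circles for CONV-R (numbered), triangles for GF and lines for group medians. Hp sits at 38.97 to 50.9 in CONV-R 2, 3 and 4, beside 36.4 to 51.9 in GF, and at 133 to 466 in the other 4 CONV-R libraries.

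Hp had 133, 38.97, 47.8, 50.9, 231, 466 and 191 counts per 1000 Alb counts in CONV-R 1 to 7, and 36.4 to 51.9 in GF. The difference in mean log2 ratio was -1.37 (exact two-sided permutation test, p = 0.0402, adjusted over all tested genes p = 0.0454). Itih4 ranged from 17.2 to 112 in CONV-R (median 56.4) and from 13.9 to 19.5 in GF (-1.32, adjusted p = 0.0286, exact permutation test). Fgg ranged from 43.6 to 254 in CONV-R (median 93.1) and from 38.7 to 55.7 in GF (-1.08, adjusted p = 0.0305, exact permutation test). These 3 of the 8 tested genes were lower in GF relative to Alb, and 0 were higher. Over all tested genes 0.525% were lower and 88.6% higher by this measure, since Alb itself was lower in GF, and with so many calls the adjustment is light.

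The other members did not pass. Orm1 differed by -1.21 (adjusted p = 0.0503, exact permutation test), Fgb by -0.94 (adjusted p = 0.0534), Fga by -0.92 (adjusted p = 0.0761), Fgl1 by -1.58 (adjusted p = 0.0871) and Lcn2 by -0.53 (adjusted p = 0.582). Saa1 had 23.8, 54.9, 157 and 33.0 counts per 1000 Alb counts in CONV-R 1, 5, 6 and 7, 0.170 to 0.313 in CONV-R 2 to 4 and 0.333 to 0.899 in GF. CONV-R 2, 3 and 4 were thus the 3 lowest libraries for Saa1, below every GF library. These ratios rest on 7 or 8 Saa1 counts in CONV-R 2 to 4 and 4 to 12 in GF, so their order is uncertain. By CPM the same 3 libraries lay within the GF range. The Saa1 difference was -3.08 (unadjusted p = 0.0828, exact permutation test) and that of Saa2 -4.01 (unadjusted p = 0.0653, exact permutation test).

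The calls relative to Alb depended on which libraries and which denominator were used. Against CONV-R 1 to 4 alone 1 of 8 was lower (Itih4) beside 0.266% of all tested genes. Against CONV-R 5 to 7 alone all 8 were lower, beside 1.48%. With the summed negative acute-phase genes, leaving out Alb, as the denominator 6 of 8 were lower, beside 0.769%. Hp no longer passed when a single library out of CONV-R 1, 5, 6 and 7 and GF 9 to 13 was dropped, with adjusted p from 0.0505 to 0.0804 (exact permutation test). With the hepatocyte reference sum in place of Alb, 0 of all 13915 genes passed in either direction, so that the lost calls tell nothing about the members. The differences were larger than relative to Alb, at -1.96 for Hp, -1.91 for Itih4 and -1.67 for Fgg, and 7 of 8 had an unadjusted p under 0.05 (exact permutation test). With Alb counts as the offset, edgeR called all 8 lower, beside 0.985% of all tested genes lower and 86.4% higher. For levels, edgeR with Alb as a covariate called 0 of 8 (adjusted p from 0.147 to 0.308, log2 fold changes from -2.95 to -1.29), with 7 of 8 at an unadjusted p under 0.05, and 1.11% of all tested genes were lower in that fit. With the hepatocyte reference sum as the covariate 6 of 8 were lower, beside 4.61% of all tested genes, Fgl1 and Lcn2 being lost.

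The balance of the 3 fibrinogen chains was nearly constant. Fga made up 36.4 ± 2.12% of fibrinogen counts in CONV-R (SD, n = 7) and 37.8 ± 1.58% in GF (n = 6), Fgb 33.8 ± 1.50% and 34.5 ± 0.57%, and Fgg 29.9 ± 1.27% and 27.7 ± 1.49%. The largest difference, that of Fgg, was -2.15 percentage points (exact permutation test, p = 0.0204, adjusted over the 3 chains p = 0.0612). Fga differed by 1.44 points (adjusted p = 0.290, exact permutation test) and Fgb by 0.70 (adjusted p = 0.306). Without CONV-R 7, GF 9 or GF 12 the Fgg share passed, with adjusted p from 0.0341 to 0.0455 (exact permutation test). The Fgg share of CONV-R 2, at 31.4%, was the highest and that of GF 10, at 25.7%, the lowest. Per kilobase of transcript (2587 bases for Fga, 3810 for Fgb and 1741 for Fgg) Fgg made up 42.8 ± 1.61% in the CONV-R libraries and 40.2 ± 1.87% in the GF libraries. Thus the total of the chains differed between groups several times over while no chain's mean share differed by more than 2.15 points of the counts, or 2.59 points per kilobase, over all 13 libraries.

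**Figure D4:**
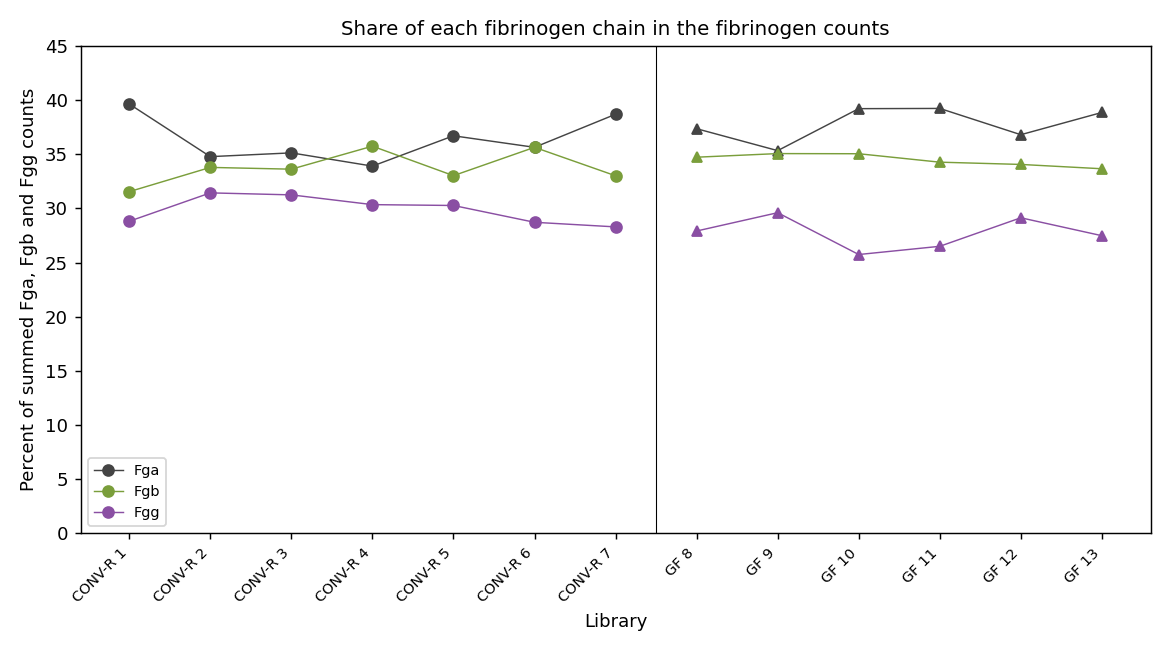
Percentage of the summed Fga, Fgb and Fgg counts that each chain took in every library (circles CONV-R, triangles GF). Fga stays between 33.9 and 39.6%, Fgb between 31.5 and 35.8% and Fgg between 25.7 and 31.4% in all 13 libraries.

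Other genes of the acute phase were compared by lists chosen with earlier results of these data known. Of 20 tested genes in the list of other positive acute-phase genes, 14 were lower in GF, 2 higher and 4 passed in neither direction, with a median log2 fold change of -1.62 against -0.01 for all tested genes. Pzp, a broad protease inhibitor of mouse plasma, fell 6.78-fold (-2.76 ± 0.52, adjusted p = 0.00306, edgeR), and the interleukin-1 receptor antagonist gene Il1rn 2.83-fold (-1.50 ± 0.27, adjusted p = 0.00255). Over all tested genes 12.7% were lower and 11.4% higher. In both Pzp and Il1rn all GF libraries lay below CONV-R, which was the case for 4.32% of all tested genes. The haem carrier gene Hpx, named after its values were seen, fell from 195 ± 162 to 17.7 ± 3.70 CPM (-3.46 ± 0.67, adjusted p = 0.00358, edgeR). The 2 that rose were A2m, the alpha-2-macroglobulin gene, from 1.04 ± 0.37 to 5.89 ± 0.88 CPM (2.49 ± 0.22, adjusted p = 2.31e-05, edgeR), and Lbp, the lipopolysaccharide-binding protein gene, from 108 ± 14.8 to 172 ± 19.6 CPM (0.67 ± 0.10, adjusted p = 6.73e-04). In both, every GF library lay above every CONV-R library, but genes named by their smallest p are more likely to be separated in this way. Lbp did not follow the split among the CONV-R libraries, ranging only from 85.7 to 131 CPM there. Relative to Alb, 0 of these 20 genes were lower and 6 higher, beside 0.525% of all tested genes lower and 88.6% higher. Against CONV-R 1 to 4 alone 4 of the list were lower in level, with limma-voom 6, and without CONV-R 1 and 7 also 6.

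Genes of the negative acute-phase list were also mostly lower in GF. The list holds genes whose products fall in the plasma during an acute phase and, besides them, the transcription factor gene Hnf4a. Alb is itself on this list. Of 12 tested, 11 were lower, Alb among them, and 0 higher, with a median of -2.06. Over all tested genes 12.7% were lower and 11.4% higher. Ahsg (fetuin-A) fell 4.29-fold, Apoa2 4.63-fold, the vitamin D-binding protein gene Gc 4.66-fold and Igfals, which stabilises circulating insulin-like growth factor, 7.82-fold. The exception was Hnf4a, a hepatocyte transcription factor gene, at -0.03 ± 0.34 (adjusted p = 0.957, edgeR), which was named after its value was seen. Positive and negative acute-phase genes were thus lower in the same group. Relative to Alb, 1 of the 11 tested negative genes other than Alb was lower and 1 higher, beside 0.525% of all tested genes lower and 88.6% higher. Their median difference was -0.31, against -1.14 for the tested members.

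Coagulation genes made by hepatocytes were lower in GF in 19 of 19 cases, beside 12.7% of all tested genes, with a median of -2.37. Serpinf2, the plasmin inhibitor gene, fell 5.73-fold (-2.52 ± 0.42, adjusted p = 0.00149, edgeR), Kng1 (kininogen) 6.52-fold, Serpinc1 (antithrombin) 5.48-fold and Plg (plasminogen) 6.36-fold. All 4, named by their smallest p, were lower without overlap between groups, as were 4.32% of all tested genes. Relative to Alb 6 of the 19 were lower, beside 0.525% of all tested genes, and the median difference was -0.49. The hepatocyte reference list had a median of -0.73, with 10 of 24 lower and 0 higher. Those that fell included the glucose-6-phosphatase gene G6pc (-3.09 ± 0.43), the cytochrome P450 gene Cyp2d9 (-3.23 ± 0.59), Apob (-2.87 ± 0.57) and the asialoglycoprotein receptor gene Asgr1 (-2.10 ± 0.45), all with adjusted p from 4.90e-04 to 0.00593 (edgeR). Relative to Alb 16 of these 24 genes were higher and 3 lower, beside 88.6% of all tested genes higher and 0.525% lower.

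**Figure D5:**
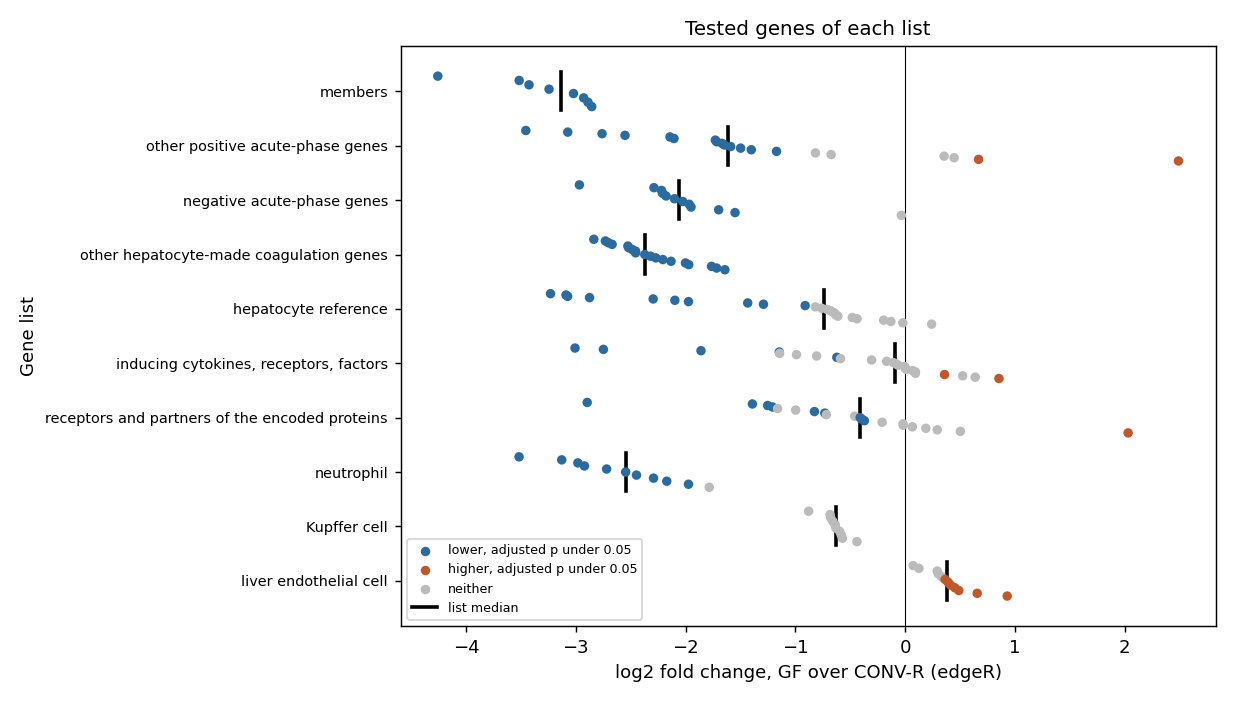
Log2 fold change (GF over CONV-R) of every tested gene in each list, coloured by the outcome of the edgeR test, with the list median as a bar. The 8 tested acute-phase and fibrinogen members have a median of -3.13, the coagulation genes -2.37, the negative acute-phase genes -2.06 and the endothelial markers 0.38.

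The list of cytokines that drive the acute phase, their receptors and the transcription factors moved less by its median. Among its cytokine genes, however, Tnf, Osm and Il1b were lower in the main fit, while Il6 did not pass. Of 24 tested, 5 were lower in GF and 2 higher, beside 12.7% and 11.4% of all tested genes, with a median of -0.09. The higher count was 1 on leaving out CONV-R 2, CONV-R 4 or any 1 GF library, and 3 without CONV-R 5 or 7, while 4 to 6 were lower. With library totals 8 were lower and 1 higher, and with the neutrophil covariate 1 and 2. Tnf fell from 5.32 ± 1.85 to 1.45 ± 0.31 CPM (-1.86 ± 0.24, adjusted p = 2.53e-04, edgeR) and Osm, which encodes oncostatin M of the interleukin-6 family, from 31.3 ± 32.6 to 3.83 ± 1.30 CPM (-3.01 ± 0.60, adjusted p = 0.00418). Osmr, the gene of its receptor, rose from 177 ± 43.7 to 320 ± 22.96 CPM (0.86 ± 0.14, adjusted p = 0.00166, edgeR). The interleukin-1 receptor partner gene Il1rap fell 1.54-fold. Named after their values were seen, Il1b stood at -2.75 ± 0.57 (adjusted p = 0.00534, edgeR) and the STAT3 target gene Socs3 at -1.15 ± 0.33 (adjusted p = 0.0247). Il6 itself did not pass (-1.14 ± 0.52, adjusted p = 0.122, edgeR) and was scarce, at 0.177 to 0.594 CPM in GF against 0.169 to 1.96 in CONV-R. Stat3 stood at 0.07 ± 0.08 (adjusted p = 0.570) and Cebpa at 0.01 ± 0.15 (adjusted p = 0.970, edgeR).

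Among receptors and partners of the encoded proteins, 9 of 21 tested genes were lower in GF and 1 higher, with a median of -0.41. Over all tested genes 12.7% were lower and 11.4% higher. Against CONV-R 1 to 4 alone 1 was lower and 2 higher, and leaving out 1 library gave from 4 (without GF 9) to 12 (without CONV-R 4) lower. The 1 that rose was Itgb3, which encodes a subunit of a fibrinogen-binding integrin, from 63.9 ± 22.2 to 261 ± 60.3 CPM (2.03 ± 0.21, adjusted p = 5.13e-05, edgeR). Itih1, of the same family as Itih4, fell 7.44-fold, whereas Tlr2, whose product can bind serum amyloid A, fell 1.33-fold and Slc22a17, a lipocalin-2 receptor gene, 1.29-fold. The haptoglobin-haemoglobin receptor gene Cd163 had a mean of 248 ± 62.1 CPM over GF libraries and 251 ± 109 over CONV-R libraries (-0.02 ± 0.27, adjusted p = 0.973, edgeR). Cd163 was named after its value was seen.

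Markers of other cells did not all move in the direction of the members, and their part in these results was not tested beyond the covariate fits given above. The counts below stand beside 12.7% of all tested genes lower and 11.4% higher in the main fit. Of 11 tested neutrophil markers 10 were lower in GF (median -2.55), such as Retnlg (-2.98 ± 0.54), Mmp9 (-2.45 ± 0.49), Csf3r (-2.55 ± 0.54) and Cxcr2 (-2.72 ± 0.61). Of 10 Kupffer cell markers 0 passed with edgeR, with 7 at an unadjusted p under 0.05 and Clec4f at -0.66 ± 0.27 (adjusted p = 0.0919), and DESeq2 and library totals each called 2 lower. Leaving out 1 library gave 0 to 7 lower, with 7 without CONV-R 4, 3 without CONV-R 3 and 2 without CONV-R 2, and against CONV-R 5 to 7 alone all 10 were lower. Endothelial markers were higher in 7 of 12, led by Lyve1 (0.93 ± 0.13), Oit3 (0.66 ± 0.16), Gpr182 (0.45 ± 0.12) and Tek (0.37 ± 0.10), and at least 4 were higher with any 1 library left out, but 1 against CONV-R 1 to 4 alone. Cholangiocyte markers were higher in 5 of 8, with Krt7 at 1.26 ± 0.30, Cftr at 1.40 ± 0.37, Epcam at 1.22 ± 0.32 and Krt19 at 1.71 ± 0.48. The stellate cell genes Col1a1 (4.20 ± 1.40) and Col1a2 (3.21 ± 1.10) passed on GF 11, which held 154 and 146 CPM against at most 1.19 and 3.27 in the other GF libraries, and DESeq2 and limma-voom called 0 genes of that list higher. With the neutrophil sum as a covariate 5 of the 8 members and 4.92% of all tested genes were lower, Fga (adjusted p = 0.0514), Fgl1 (adjusted p = 0.0576) and Lcn2 being lost (edgeR).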

How the data were processed

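The deposited data are raw counts for each gene symbol in 13 library columns of a single table. Per the labels' protocols, libraries were made from total RNA with a stranded mRNA kit and read on an Illumina NovaSeq. The submitters' processing notes name the build mm10 and the tools STAR 2.7.5a, featureCounts 2.0.1 (Subread), FastQC 0.11.9 and DESeq2 1.42.1. The sources used here do not give the annotation, the strand setting or the handling of multi-mapping reads. Counts of near-identical genes (Saa1 and Saa2, Orm1 to Orm3) are therefore uncertain. The table held 24421 symbols, none duplicated. All library pairs within a group differed beyond sampling noise, the closest with a chi-square of 13.4 per degree of freedom.

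The deposited counts entered edgeR 4.0.16 (R 4.3.3) with filterByExpr (minimum count 10, minimum total 15), TMM scaling, a robust quasi-likelihood fit of group on all 7 CONV-R and 6 GF libraries, and Benjamini-Hochberg adjustment over 13915 genes with a threshold of 0.05. A standard error is the size of the log2 fold change over the square root of F. Levels relative to Alb were log2((count + 0.5)/(Alb count + 0.5)), compared for every tested gene by an exact two-sided permutation test over libraries (smallest possible p = 5.83e-04), adjusted over all of these genes. Shares of fibrinogen chains were compared by the same test, adjusted over 3 chains. Counting intervals are at 95% and cover counting error only.

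Transcript lengths and identities came from GENCODE M21 transcripts, and coordinates and upstream sequence from RefSeq (GRCm38). Members and gene lists were chosen with earlier results of these data known. Besides the 10 members and Alb, the rule named up to 4 genes of each of 11 lists (those past the threshold with the smallest p, or the most abundant where none passed) and the 5 genes with the most alike profile at a mean of at least 1 CPM. Alternatives were DESeq2 1.42.0, limma-voom (limma 3.58.1), other scalings and filters, covariates for Alb, hepatocyte or neutrophil levels, each CONV-R code number alone, other denominators and a pseudocount of 5, counts per kilobase, and leaving out each library. Leaving out CONV-R 1 and 7 (highest Alb) or CONV-R 6 and 7 (highest neutrophil markers) was chosen after seeing the data. The fit was tested on simulated counts that held no split among the libraries of a group, so this does not test the fit under the CONV-R split. It recovered 47.8% of genes changed 1.5-fold, 71.6% at 2-fold and 89.4% at 4-fold, with 0.714% of calls false.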

Additional observations from a re-analysis of the deposited data

Results flagged for a closer look

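Of 126 groups of values searched, 11 held a library far from the rest of its group by Dixon's criterion, which chance alone meets in about 1 of 20 groups. Among the members, 3 of these lie in CONV-R 6, the library with the lowest depth and the highest ratios to Alb. Per 1000 Alb counts, CONV-R 6 held 157 of Saa1 (0.170 to 54.9 in the other CONV-R libraries), 141 of Saa2 (0.0794 to 34.8) and 69.1 of Lcn2 (0.711 to 14.3). The Fgg ratio of GF 9, at 55.7 per 1000 Alb counts, stood above the other GF libraries at 38.7 to 43.8.

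Among the other named genes, GF 8 held 6.38 CPM of Osm (2.92 to 3.92 in the other GF libraries) and 10.4 CPM of Cxcr2 (4.01 to 6.09). CONV-R 7 held 177 CPM of the neutrophil gene Mmp9 (23.1 to 69.8 in the other CONV-R libraries). CONV-R 2 held 11.0 CPM of Epcam (1.87 to 5.48) and 35.8 CPM of Krt19 (2.88 to 16.1), both bile duct genes. GF 11 held 154 CPM of Col1a1 (0.493 to 1.19 in the other GF libraries) and 146 CPM of Col1a2 (1.57 to 3.27).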

How the results depend on the processing

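All 8 tested members were lower in GF with DESeq2's size factors (beside 13.1% of all tested genes), library totals (19.9%) and DESeq2 (12.1%). They were also lower with each library left out in turn (beside 8.53 to 14.2%). With no filter all 10 members were lower, beside 8.03%. The count of lower members was 0 with Alb (1.11%), 5 with the neutrophil sum (4.92%) and 6 with the hepatocyte reference sum (4.61%) as a covariate. It was 6 with limma-voom (beside 11.8% of all tested genes lower), 7 against CONV-R code number 10 alone (beside 7.05%) and 7 without CONV-R 6 and 7 (beside 9.97%). Over all genes, lower and higher calls were 1764 and 1593, against 2773 and 971 with library totals (median log2 fold change -0.11), 154 and 218 with the Alb covariate, 641 and 618 with the hepatocyte covariate, 684 and 444 with the neutrophil covariate, and 1000 and 978 against CONV-R code number 10 alone. Leaving out 1 library gave 1208 to 1972 lower and 1013 (without GF 9) to 1765 higher. The cause of these shifts was not tested. Relative to Alb the count of 3 lower members became 0 with the hepatocyte denominator (where 0 of 13915 genes passed and the member differences were larger, at -2.16 to -1.12), 6 with the negative acute-phase sum, 1 with code number 10 alone, 8 with code number 9 alone, 8 with edgeR and the Alb offset, and 2 to 5 on leaving out 1 library. Lcn2 turned direction in 4 cases: 0.86 in level with the neutrophil covariate, and relative to Alb 0.80 with code number 10 alone, 0.36 without CONV-R 6 and 7 and 0.030 without CONV-R 6, the top of a range from -1.07 (without CONV-R 1) over single omissions. The Fgg share difference ran from -2.52 to -1.75 points over single omissions, and was -2.67 without CONV-R 1 and 7 and -2.69 without CONV-R 6 and 7. The Fga share difference passed without CONV-R 1 and 7 (2.57 points, adjusted p = 0.0260, exact permutation test). Of the other values for single genes, 244 for levels and 164 relative to Alb kept direction and call, 17 and 16 lost the call, and 4 and 25 gained it. No paired analysis was possible because the replicate numbers of the groups (1 to 7 and 8 to 13) share none. Low counts limit Saa1, Saa2 and Orm2 in GF, which rest on 0 to 12 counts per library.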

Other observations

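Values outside the comparisons above, chosen after they were seen, concern genes too low to be tested. Saa3, a serum amyloid A gene expressed mainly outside hepatocytes, had 48, 19, 24 and 20 counts in CONV-R 1, 5, 6 and 7, 3 to 5 in CONV-R 2 to 4 and 4 to 6 in 5 of the GF libraries. GF 11 held 4.80 CPM of Saa3, the highest level of all 13 libraries, and it was also the library with high Col1a1 and Col1a2. Saa3 was thus high in the same 4 CONV-R libraries as Saa1, and also in GF 11, which held 8 counts of Saa1. Ass1, a urea cycle gene of hepatocytes, had 0 or 1 count in each library, although Cps1 of the same cycle stood at 114 ± 79.5 CPM in CONV-R and 42.3 ± 6.33 in GF. Whether the authors' counting drops reads of Ass1 was not tested. The neutrophil granule gene Mpo had 40 counts in CONV-R 1 and 0 to 2 in the other 12 libraries, while the summed neutrophil markers were lowest in CONV-R 1 among the CONV-R libraries.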
